A study of Bos taurus with 22 samples.

Results

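Transcripts of YTHDC1 and YTHDC2, a pair of RNA methylation readers that share the YTH domain, were followed across the circulating white blood cells of 22 heifers. The 2 genes were taken by symbol from the annotation columns of a supplementary gene table and matched by Ensembl identifier to the deposited counts, where they are 2 of 27607 genes and 2 of the 13535 genes that passed the filter on low counts. That table pairs identifiers with names only in its 1401 rows of smallest fertility p-value, so both genes were in effect selected on their fertility p-value, from the comparison of Fertile with Sub-Fertile heifers. Values of that comparison are therefore given as a description, without a test, while breed, the interaction of breed with fertility, and co-variation among heifers of the same group did not enter the choice.

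The study asked which blood transcripts differ with fertility in purebred Angus and Holstein heifers bled when they were first inseminated, with 1 RNA sequencing library from each heifer. The Angus heifers, 7 Sub-Fertile and 5 Fertile, averaged 14 months of age and had received an intravaginal progesterone device (CIDR) for 7 days, and the Holstein heifers, 5 Sub-Fertile and 5 Fertile, averaged 12 months and had received it for 5 days. A Fertile heifer delivered a calf from the first insemination, whereas an Angus Sub-Fertile heifer was not pregnant after 2 inseminations and a bull, and a Holstein Sub-Fertile heifer received 4 or more inseminations or did not become pregnant. Breed, age, length of the CIDR treatment and the definition of Sub-Fertile go together here and cannot be told apart. The cells came from the buffy coat, a mixture of leukocytes with some platelets, and in such bulk samples fewer cells of a type and less RNA per cell cannot be told apart.

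N6-methyladenosine is a methyl mark that a METTL3 and METTL14 complex places on adenosines of messenger RNA and that FTO and ALKBH5 can remove. Proteins with a YTH domain bind the marked base. YTHDC1 is the nuclear reader, which recruits the splicing factor SRSF3 to marked transcripts, hinders the binding of SRSF10 to them and takes part in their export, whereas YTHDC2 is an RNA helicase best known for its need in meiosis of germ cells, where it acts on the stability and translation of transcripts.

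Total counts per heifer ranged from 12182400, in Angus Fertile heifer 21, to 49228035, with a median of 23158374. A close pair was defined as 2 heifers whose libraries were each nearest to the other and less than 0.5 of the median distance apart, and 8 such pairs were found. Breeds differed between the partners in 4 of these 8 pairs and fertility classes in 6, and 0 pairs had both partners in the same group. The labels describe no link between these heifers, and its source was not tested. Of 68 cell type markers listed, 8 had a name in the table used here, and all 8 had counts in every heifer, among them CSF3R and MMP9 of neutrophils, BANK1 of B cells and ITGA2B of platelets. No T cell, monocyte, natural killer and cytotoxic cell or red blood cell marker had a name, and only 1 of 9 B cell markers did, so the cell mixture was only partly checked.

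YTHDC1 (ENSBTAG00000015572) lies on chromosome 6 at 84101528 to 84139895 of ARS-UCD1.2, and no other RefSeq gene overlaps it. Its transcript abundance, in CPM (counts scaled to a common total per heifer, using the sum of its counts), was 138 at the lowest, 155 at the median and 159 at the highest of the 7 Angus Sub-Fertile heifers. In the 5 Angus Fertile heifers it was 134 in heifer 18, 137 in heifer 19, 151 in heifer 20, 113 in heifer 21 and 162 in heifer 22. Heifer 21 was thus the lowest of all 22 heifers, and heifer 22 of the same group exceeded every Angus Sub-Fertile heifer. In the Holstein Sub-Fertile heifers YTHDC1 was 157 CPM in heifer 1, 164 in heifer 2, 177 in heifer 3, 151 in heifer 4 and 147 in heifer 5. In the Holstein Fertile heifers it was 148 CPM in heifer 6, 143 in heifer 7, 158 in heifer 8, 138 in heifer 9 and 137 in heifer 10. Each Fertile group overlapped the Sub-Fertile group of its breed.

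The YTHDC1 group means fell in the order Holstein Sub-Fertile (159.1 ± 11.8 CPM, SD, n = 5), Angus Sub-Fertile (150.1 ± 8.58, n = 7), Holstein Fertile (144.7 ± 8.55, n = 5) and Angus Fertile (139.4 ± 18.7, n = 5). Each step between neighbours in that order was smaller than the larger of their SDs. Raw YTHDC1 counts ranged from 1373 in heifer 21 to 7435 in heifer 20.

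YTHDC2 (ENSBTAG00000014099) lies on chromosome 10 at 2413343 to 2486039 of ARS-UCD1.2, again with no overlapping RefSeq gene. Its abundance in the 7 Angus Sub-Fertile heifers was 75.2 CPM at the lowest, 86.5 at the median and 90.2 at the highest. In the Angus Fertile heifers it was 72.9 CPM in heifer 18, 86.1 in heifer 19, 72.6 in heifer 20, 65.5 in heifer 21 and 88.8 in heifer 22. The Angus Fertile values split into 3 heifers below every Angus Sub-Fertile heifer and 2 inside their range, and heifer 21 was again the lowest of all. In the Holstein Sub-Fertile heifers YTHDC2 was 87.2 CPM in heifer 1, 87.5 in heifer 2, 84.8 in heifer 3, 84.0 in heifer 4 and 87.2 in heifer 5. In the Holstein Fertile heifers it was 82.0 CPM in heifer 6, 83.3 in heifer 7, 87.5 in heifer 8, 87.7 in heifer 9 and 77.4 in heifer 10. The Holstein groups overlapped as well.

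Group means of YTHDC2 were 86.1 ± 1.66 CPM (SD, n = 5) in Holstein Sub-Fertile, 85.2 ± 4.91 (n = 7) in Angus Sub-Fertile, 83.6 ± 4.26 (n = 5) in Holstein Fertile and 77.2 ± 9.88 (n = 5) in Angus Fertile heifers. The order of the 4 groups was that of YTHDC1, and again each step was smaller than the larger SD of the neighbours. Although YTHDC2 is known mainly from germ cells, its transcript was measured in all 22 heifers, with 798 counts in heifer 21 at the lowest and 3854 in heifer 22 at the highest.

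**Figure D1:**
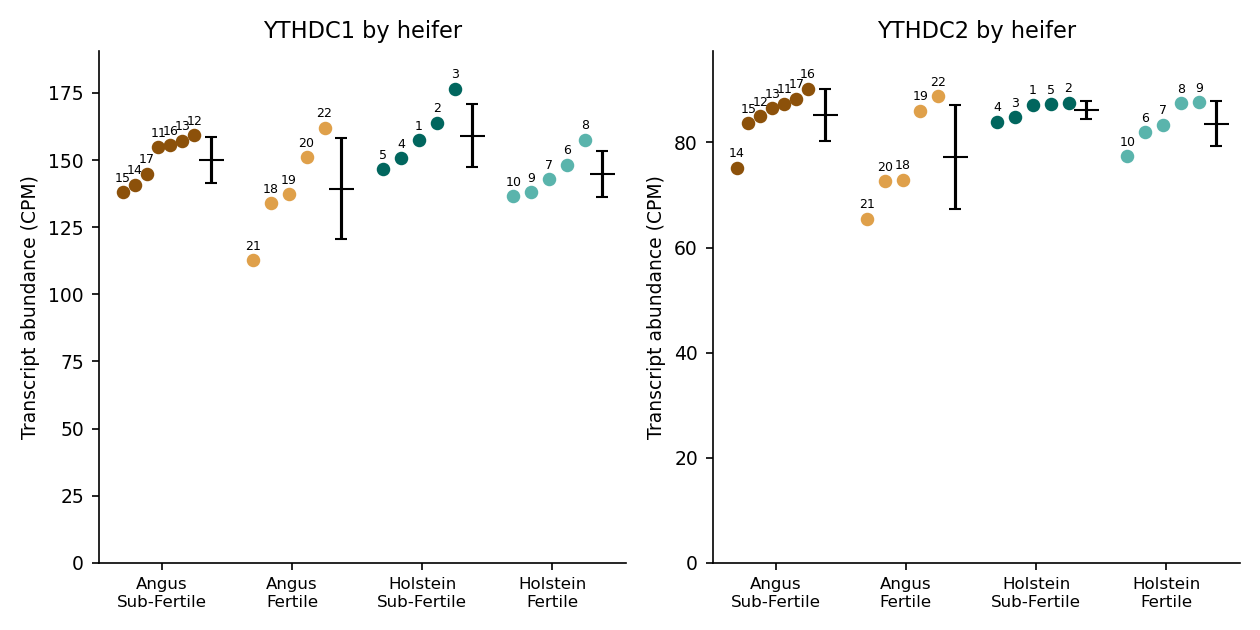
Transcript abundance of YTHDC1 (left) and YTHDC2 (right) in CPM, on axes that start at 0. Each point is a heifer with its number, ordered by value within the group for legibility, and the bar beside each group is the mean ± SD. Heifer 21 is the lowest for both genes, at 113 and 65.5 CPM.

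Per kilobase of the annotated transcript length (3452 bases for YTHDC1 and 5013 for YTHDC2), abundance over all heifers was 43.0 ± 3.87 FPKM (SD, n = 22) for YTHDC1 and 16.6 ± 1.28 FPKM for YTHDC2. The nuclear reader was the more abundant of the pair in 22 of 22 heifers. The ratio of YTHDC1 to YTHDC2 on this per-length scale ranged from 2.29 in heifer 9 to 3.03 in heifer 3, with a median of 2.61. Its group means lay between 2.52 ± 0.139 in Holstein Fertile and 2.68 ± 0.216 in Holstein Sub-Fertile heifers, a distance smaller than the SD of the latter.

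Both transcripts varied little among heifers. The biological coefficient of variation, the spread between heifers that counting error does not account for, was 9.84% for YTHDC1 and 8.85% for YTHDC2. Of the genes within 2-fold of its level, 32.0% varied less than YTHDC1 and 13.1% varied less than YTHDC2. The medians of those genes were 11.2% and 11.5%. A small fertility p-value, by which both genes were in effect selected, favours a low spread, so these shares are a description. Counting error was at most 2.70% for YTHDC1 and 3.54% for YTHDC2 in any heifer, both in heifer 21, and so smaller than the spread between heifers.

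Fertile heifers had lower fitted abundance of both readers, the contrast by which the genes came to be named. With breed in the model, the fitted log2 fold change (Fertile relative to Sub-Fertile) was -0.12 (SE 0.0527) for YTHDC1 and -0.10 (SE 0.0486) for YTHDC2, or fold changes of 0.920 and 0.936. For YTHDC1, 8 of 10 Fertile heifers lay below the Sub-Fertile median and 11 of 12 Sub-Fertile heifers above the Fertile median. For YTHDC2 these counts were 7 of 10 and 11 of 12. Of all genes tested, 2.62% had an unadjusted edgeR p under 0.05 for fertility and 0 an adjusted one (3.91% and 0 in DESeq2), and nothing is read from this share for the members.

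In the breeds fitted alone, the log2 fold change of YTHDC1 was -0.11 (SE 0.0826) in Angus and -0.14 (SE 0.0665) in Holstein heifers. For YTHDC2 it was -0.14 (SE 0.0808) in Angus and -0.04 (SE 0.0529) in Holstein heifers. Heifer 21 carried part of both values, since without it the fitted changes over both breeds were -0.09 for YTHDC1 and -0.07 for YTHDC2. This heifer also had the fewest counts of all.

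Within the close pairs the lower level in Fertile heifers was not seen. Among the 6 pairs of a Fertile with a Sub-Fertile heifer, the Fertile heifer was the lower in 3 of 6 for YTHDC1 and in 3 of 6 for YTHDC2, with median log2 differences of 0.0036 and -0.0057. With the close pairs as blocks in the model, the log2 fold change for fertility was 0.01 (SE 0.0345) for YTHDC1, which reversed its direction, and -0.02 (SE 0.0374) for YTHDC2. Heifers of a close pair were alike in these genes, with a median absolute log2 difference of 0.0265 in the 8 close pairs against 0.126 in the other 223 pairings for YTHDC1. For YTHDC2 the medians were 0.0454 and 0.0698. The pairs were picked for likeness over genes with a mean CPM above 20, which include both readers. Small differences within pairs therefore follow in part from that choice, also those between Fertile and Sub-Fertile partners.

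Holstein heifers had slightly higher fitted levels than Angus heifers, but breed was not a detectable source of difference for either reader. The log2 fold change of Holstein over Angus was 0.07 (SE 0.0526, 95% interval -0.04 to 0.18) for YTHDC1, with an edgeR adjusted p of 0.627. For YTHDC2 it was 0.06 (SE 0.0485, 95% interval -0.04 to 0.16), with an edgeR adjusted p of 0.644. The intervals leave room for a fold of 0.973 to 1.13 in YTHDC1 and of 0.972 to 1.12 in YTHDC2. An exact two-sided permutation of breed within the fertility groups, over all 199584 regroupings, gave p = 0.173 for YTHDC1 and p = 0.174 for YTHDC2.

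The background for breed was 0 of 13535 genes (0%) at an adjusted edgeR p under 0.05, 10.6% at an unadjusted one and, in DESeq2, 10 genes (0.0739%) at an adjusted and 12.9% at an unadjusted p under 0.05. The p-values measure the spread between heifers, and the close pairs mean that the heifers were not all independent of each other.

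The fertility difference was not detectably unequal in the breeds. The interaction, the log2 fold change for fertility in Holstein minus that in Angus heifers, was -0.03 (SE 0.107, 95% interval -0.26 to 0.19) for YTHDC1, with an edgeR adjusted p of 0.928. For YTHDC2 it was 0.10 (SE 0.0970, 95% interval -0.11 to 0.30), with an edgeR adjusted p of 0.709. Both intervals include inequalities as large as the fertility differences themselves, which could not have been detected with these heifers. The interaction was called in 0 of 13535 genes (0%) by edgeR and in 0 by DESeq2, with 10.4% and 12.2% at an unadjusted p under 0.05. The sign of the YTHDC1 interaction turned with TMM factors (0.000467) and in several other fits.

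**Figure D2:**
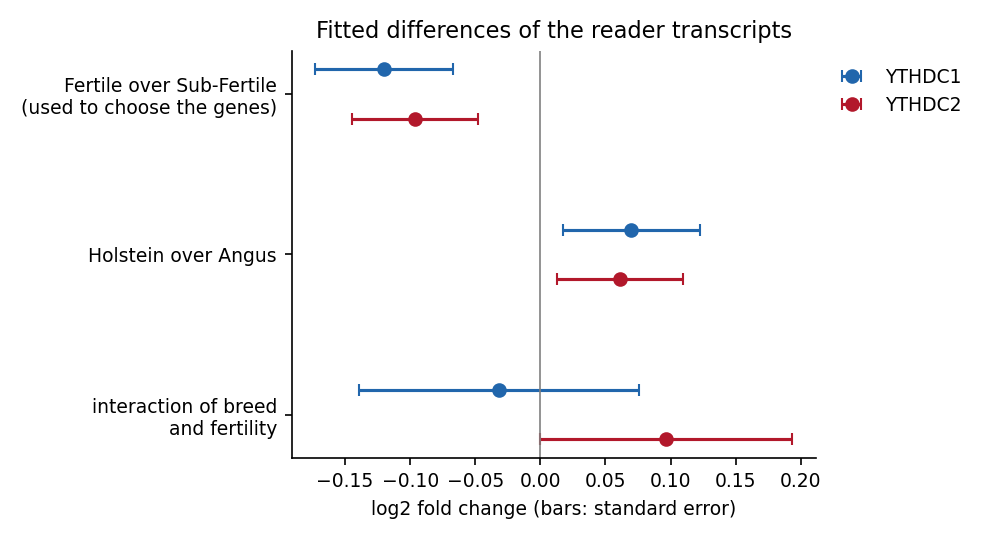
Fitted log2 fold changes of YTHDC1 (blue) and YTHDC2 (red) for fertility, breed and their interaction, with bars of 1 standard error. The fertility values, -0.12 and -0.10, are a description because that contrast named the genes, and the breed values are 0.07 and 0.06.

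The levels of both readers varied together among heifers of the same group, although the relation rested on heifers 21 and 22. With the 4 group means taken out of log2(CPM + 1), Pearson's r between YTHDC1 and YTHDC2 was 0.594 over 22 heifers (permutation p = 0.00386, adjusted p = 0.0193 over 15 relations). Spearman's rho was 0.440 (permutation p = 0.0413, adjusted p = 0.103). The permutations moved values freely among all 22 heifers, although the 4 group means had been taken out first. The permutation p-values of correlations given here and below are therefore somewhat too small. Without heifers 21 and 22, the lowest and the highest on YTHDC1 relative to their group, r was 0.209, so the relation no longer held. Without heifer 21 alone r was 0.374 (permutation p = 0.0948), and with each close pair averaged into 1 value it was 0.595 over 14 units (permutation p = 0.0294).

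Among the 10744 genes with a mean of at least 5 CPM, YTHDC2 ranked 710 by its r with YTHDC1, within the top 6.61%, and 117 among the 1126 of them with a name. YTHDC1 ranked 348 by its r with YTHDC2, within the top 3.24%, and 78 among the 1126 with a name. The median r over all these genes was 0.110 with YTHDC1 and 0.0447 with YTHDC2, and 11.9% and 7.27% of the genes had an r above 0.5.

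**Figure D3:**
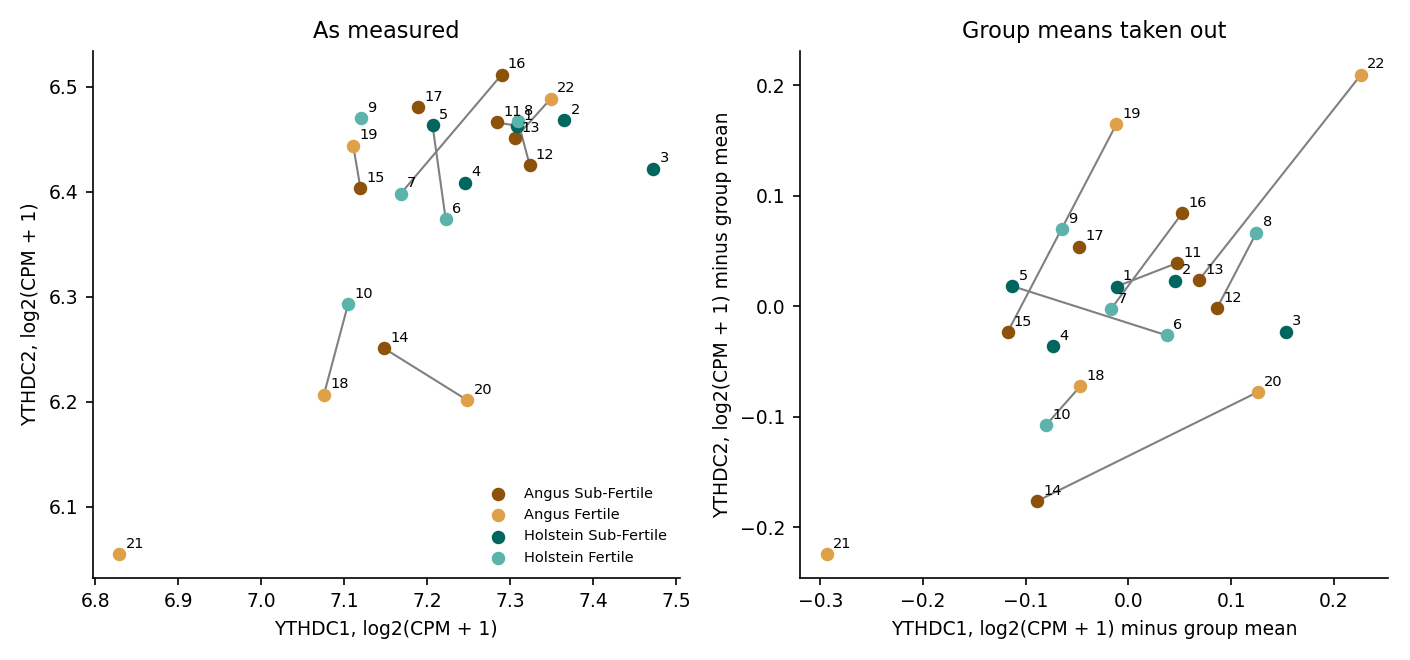
YTHDC2 against YTHDC1 in log2(CPM + 1), as measured (left) and with group means taken out (right), 1 numbered point per heifer. Grey lines join the 8 close pairs. Heifers 21 and 22 lie at opposite ends on the right, where r is 0.594 with them and 0.209 without them.

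Other measures moved with the members as well, but these relations were not redone with close pairs averaged. Their permutation p-values are somewhat too small for the reason given above. The mean log2 level of the 2 named platelet markers, ITGA2B and GP9, had an r of -0.621 with YTHDC1 and of -0.630 with YTHDC2 (permutation test, adjusted p = 0.0151 for both). Spearman's rho was -0.519 and -0.448 (adjusted p = 0.0705 and 0.103). Without heifers 21 and 22 the values of r fell to -0.342 and -0.360, so this relation too rested on these heifers. ITGA2B stood at 62.9 CPM in heifer 21 and 32.5 CPM in heifer 22, and GP9 at 5.91 and 0.622 CPM. The summed CPM of both platelet markers ranged from 33.1 to 68.8 in Angus Fertile, from 33.8 to 50.6 in Angus Sub-Fertile, from 37.5 to 73.1 in Holstein Fertile and from 33.8 to 47.2 in Holstein Sub-Fertile heifers. The highest sums of these 2 markers lay in the Fertile groups, where the readers were lower. The lowest sums in Angus were close, at 33.1 in Fertile and 33.8 in Sub-Fertile heifers. Fitted fertility log2 fold changes were 0.28 (SE 0.122) for ITGA2B and 0.63 (SE 0.318) for GP9. These are a description, since the names of both markers come from that contrast. The part of platelets in the reader values was not tested.

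CCR3 and FCER1A, markers of eosinophils and basophils, had an r of -0.535 with YTHDC2 (permutation test, adjusted p = 0.0350) and a rho of -0.572 (adjusted p = 0.0492). Without heifers 17 and 22 its r was -0.578. Both adjusted p-values are somewhat too small and treat the heifers of close pairs as independent, so they do not establish a relation. With YTHDC1 the same markers had an r of -0.166 (adjusted p = 0.462), and the difference between the readers in this respect was not tested. The summed CPM of CCR3 and FCER1A ranged from 39.2 to 73.4 in Angus Fertile, from 37.2 to 64.0 in Angus Sub-Fertile, from 45.0 to 73.0 in Holstein Fertile and from 31.3 to 57.3 in Holstein Sub-Fertile heifers. The sum was mostly CCR3 (40.2 ± 12.9 CPM, SD, n = 22, against 9.98 ± 2.70 for FCER1A), and the fitted fertility log2 fold changes of the 2 markers had opposite signs, 0.32 (SE 0.180) for CCR3 and -0.28 (SE 0.159) for FCER1A. The part of these cells in the YTHDC2 level was not tested.

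The neutrophil markers CSF3R, MMP9 and TGM3 had an r of 0.320 with YTHDC1 and 0.280 with YTHDC2, and of 0.523 and 0.470 without heifers 6 and 8. Their summed CPM ranged from 241 to 390 (median 255) in Angus Fertile, from 229 to 527 (median 327) in Angus Sub-Fertile, from 118 to 352 (median 209) in Holstein Fertile and, with the median at 401, from 261 to 650 in Holstein Sub-Fertile heifers. Like the readers, these markers had lower fitted levels in Fertile heifers, at log2 fold changes of -0.43 (SE 0.184) for CSF3R, -0.74 (SE 0.368) for MMP9 and -0.98 (SE 0.453) for TGM3, a description since their names too come from that contrast. The part of neutrophils in the reader values was not tested. The B cell marker BANK1 had an r of 0.284 with YTHDC1 and 0.236 with YTHDC2. The log2 total counts had an r of 0.417 with YTHDC1 and 0.212 with YTHDC2, and the first principal component of the libraries -0.313 and -0.207. None of these 8 relations with neutrophil markers, BANK1, total counts or the first principal component passed an adjusted p of 0.05 by Pearson's r or by Spearman's rho (smallest adjusted p = 0.120).

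Of 42 genes listed for RNA methylation, covering writers, erasers, other readers and partners of the members, 1 had a name in the table used here. METTL3, METTL14, WTAP, FTO, ALKBH5, YTHDF1, YTHDF2 and YTHDF3 carried no name, and their transcripts were not analysed here. The named gene was SRSF10 (ENSBTAG00000008072, chromosome 2 at 128924106 to 128936367), a splicing factor whose binding to marked transcripts YTHDC1 is known to hinder. SRSF10 was 126.98 ± 4.78 CPM (SD, n = 5) in Angus Fertile, 138 ± 13.4 (n = 7) in Angus Sub-Fertile, 140.3 ± 5.77 (n = 5) in Holstein Fertile and 146 ± 18.3 (n = 5) in Holstein Sub-Fertile heifers. The groups overlapped within each breed, and heifer 21 was the lowest of all heifers, at 119 CPM, as it was for the readers.

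The fertility log2 fold change of SRSF10, also a description, was -0.09 (SE 0.0529). The breed difference was 0.11 (SE 0.0528, edgeR adjusted p = 0.470), and the exact permutation p was 0.0511. SRSF10 followed YTHDC1 with an r of 0.426 (permutation test, adjusted p = 0.120) and a rho of 0.570 (adjusted p = 0.0492), and without heifers 2 and 16 its r was 0.477. With YTHDC2 its r was 0.415 (adjusted p = 0.120) and its rho 0.488 (adjusted p = 0.0837). The adjusted p of 0.0492 lies just under 0.05 and, like the others, is somewhat too small, so it does not establish a relation. In the list of RNA methylation genes, 0 of 1 named genes passed an adjusted p of 0.05 for breed or for the interaction, beside 0% of all genes.

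Genes whose pattern over the heifers was most like that of each reader were ranked by Pearson's r with group means taken out, among genes with a name, which themselves are genes of small fertility p-value. For YTHDC1 they were RNF11, a ubiquitin ligase (r = 0.923), ZNF326, a component of a complex that couples splicing to transcription (0.884), TRA2A, a splicing regulator (0.880), CSNK1G3, a casein kinase (0.861), and RAB21, a small GTPase of endosomes (0.860). RNF11 had the highest r with YTHDC1 of all 10744 genes, named or not. Without heifer 21 these values of r lay between 0.761 and 0.876, and with TMM factors between 0.838 and 0.908.

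For YTHDC2 the most alike were ARID4B, a subunit of a histone deacetylase complex (r = 0.848), SHOC2, a scaffold of RAS signalling (0.808), CREB1, a transcription factor (0.791), LINS1 (0.788) and UHRF1BP1L (0.766). Without heifer 21 they lay between 0.672 and 0.794, and with TMM factors between 0.733 and 0.838. No gene stood in both lists of 5. With the other reader, however, the r of the listed genes lay between 0.475 (ZNF326 with YTHDC2) and 0.852 (LINS1 with YTHDC1). Each r is across 22 heifers whose libraries vary in depth and in cell type markers, and is a description.

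Because YTHDC1 works beside the splicing machinery and YTHDC2 beside RNA turnover, 26 named RNA processing genes in 5 classes were set beside them, chosen after the fertility values were known and given without a test. The 7 splicing regulators had a median r of 0.440 with YTHDC1 and 0.292 with YTHDC2, positive in 6 of 7 and 7 of 7. TRA2A (0.880 with YTHDC1), HNRNPH2 (0.785) and HNRNPH3 (0.702) led them, while DDX5, an RNA helicase of splicing and transcription, was at -0.07. The 3 spliceosome-associated factors PRPF38B, PRPF39 and DDX46 had positive values with both readers, with medians of 0.643 and 0.655. Without heifer 21 these medians were 0.330 and 0.503, and DDX46 was at -0.05 with YTHDC2. The medians of the splicing regulators without heifer 21 were 0.401 with YTHDC1 and 0.238 with YTHDC2. Over all 10744 genes 62.2% had a positive r with YTHDC1 and 55.3% with YTHDC2. Among the 1126 with a name, from which the 26 were chosen, these shares were 54.2% and 46.9%. With TMM factors the shares over all genes were 52.4% and 50.3%.

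The 5 factors of RNA decay and tailing were positive with both readers in 5 of 5, with medians of 0.613 for YTHDC1 and 0.490 for YTHDC2. Among them CNOT6L, a deadenylase, had 0.803 with YTHDC1 and 0.763 with YTHDC2, and UPF3B, of nonsense-mediated decay, had 0.757 and 0.490. Without heifer 21 all 5 stayed positive with both readers, but their medians fell to 0.498 and 0.291. PAN3 was then at 0.130 with YTHDC1, and UPF3B at 0.174 with YTHDC2. THOC2, the scaffold of the THO complex in messenger RNA export, had 0.611 and 0.749, whereas its partners THOC3 (-0.03 and -0.19) and THOC6 (0.09 and -0.06) had values near 0 or below.

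Of the 8 core and minor spliceosome snRNP proteins, 7 (SNRPB, SNRPD1, SNRPD2, SNRPD3, SNRPF, SNRPG and SNRNP25) had values between -0.50 and 0.10 with either reader, and SNRNP48, like SNRNP25 a protein of the minor spliceosome, had 0.710 with YTHDC1 and 0.643 with YTHDC2. The median r of all 8 was -0.11 with YTHDC1 and -0.29 with YTHDC2, and 2 of 8 were positive with each. SNRPG, a core Sm protein, had -0.50 with YTHDC1 and -0.44 with YTHDC2. Without heifer 21 the medians were -0.36 and -0.38, with 1 of 8 positive for each reader, and with TMM factors they were -0.11 for both, with 1 of 8 positive with YTHDC1 and 2 of 8 with YTHDC2. The class pattern mostly followed the fertility direction, the contrast by which these 26 genes were named. Like the readers, 7 of 7 splicing regulators, 3 of 3 spliceosome-associated factors and 5 of 5 decay factors had lower fitted levels in Fertile heifers. Of the snRNP proteins 7 of 8 were higher, and SNRNP48 was lower (log2 fold change -0.10). THOC2 was lower (-0.08), and THOC3 and THOC6 higher (0.18 for both). These values are a description, and a link by function was not tested.

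**Figure D4:**
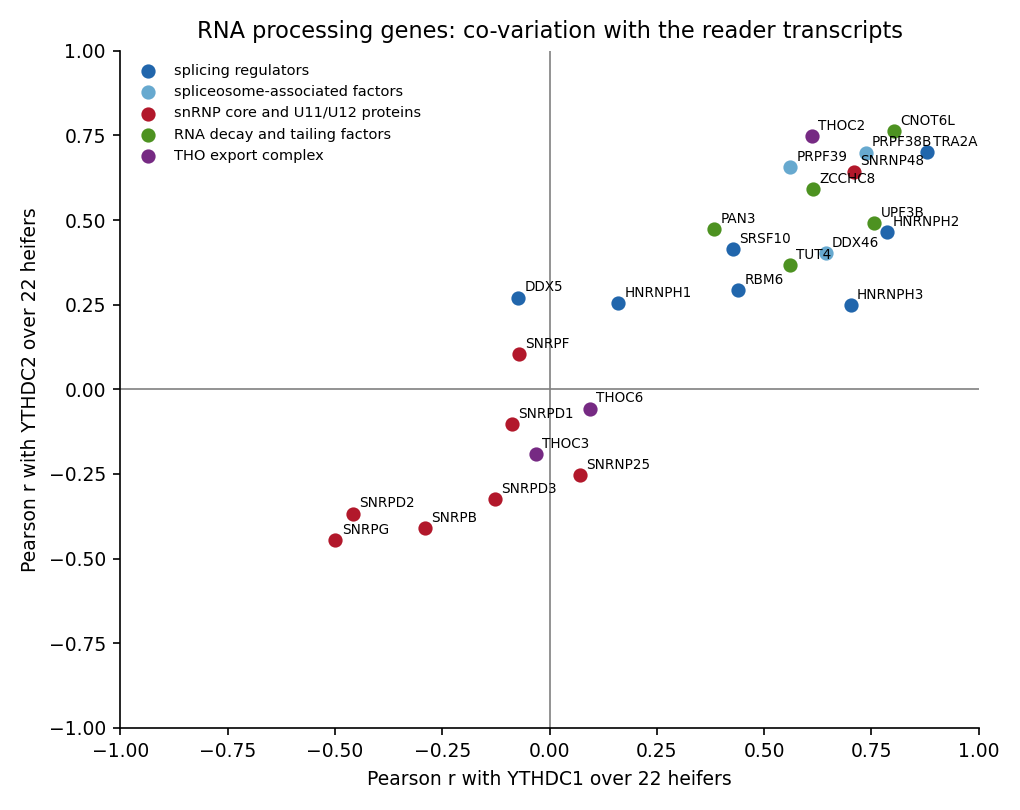
Pearson r of 26 RNA processing genes with YTHDC1 (horizontal) and with YTHDC2 (vertical) over 22 heifers, group means taken out, coloured by class. Splicing, spliceosome-associated and decay factors lie mostly at the upper right, with class medians of 0.440, 0.643 and 0.613 on the horizontal axis. The snRNP proteins lie mostly at the lower left, with a median of -0.11, except SNRNP48 at 0.710. The classes differ likewise in their fertility direction, the contrast by which the genes were named. Without heifer 21, not drawn here, these class medians were 0.401, 0.330, 0.498 and -0.36.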

How the data were processed

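White blood cell RNA of 22 heifers was sequenced as polyadenylated, stranded libraries. The authors aligned the reads to ARS-UCD1.2 with hisat2, removed duplicates with biobambam2 and summarised fragments over Ensembl genes with featureCounts, and the deposited values are raw counts, of which 0 columns were left unused. The strand setting of featureCounts and tool versions are not given in the sources used here.

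Genes that exceeded 1 CPM in 5 or more heifers were fitted in edgeR 4.0.16 (R 4.3.3) with terms for breed and fertility, total counts as library sizes and robust quasi-likelihood tests, and p-values were adjusted by Benjamini-Hochberg over 13535 genes. The interaction had its own model. Standard errors came from the fold change and its F statistic, and 95% intervals from the t distribution at the residual degrees of freedom. The scripts were tested on simulated data. DESeq2 1.42.0 was an alternative, as were TMM factors, other filters, estimation that was not robust, added covariates, the close pairs as blocks, single breeds or fertility groups, and each heifer left out. Correlations used log2(CPM + 1) in Python 3.11.15 with 100000 permutations, two-sided. Values with group means taken out were permuted freely over all heifers, which makes these p-values somewhat too small. Closeness of heifers was the common edgeR coefficient of variation over genes with a mean CPM above 20. Counting errors cover counting only.

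The members and lists were chosen with earlier results of these data known. The named genes were the members, chosen RNA methylation genes where they had a name, those with the lowest and highest fertility value in each list, and the 5 named genes most alike each member. The RNA processing genes were picked with their values in view, and fits of these and of the most alike genes without heifer 21 or with TMM factors were added after seeing the data. Names were at hand for 1228 of 27607 genes. Neighbouring genes came from RefSeq on ARS-UCD2.0, used for names only. Columns of the authors' own comparisons, with fold changes and p-values, were not used.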

Additional observations from a re-analysis of the deposited data

How the results depend on the processing

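The close pairs, heifers 21 and 22, and the few names at hand limit these results most. The cause of each change below was not tested. With the close pairs as blocks, the YTHDC1 values for fertility (0.0126) and breed (-0.0254) and the YTHDC2 interaction (-0.0318) turned sign. In these fits heifers outside the pairs add nothing to the estimates. Breed then rests on the 4 pairs whose partners differ in breed, and fertility on the 6 whose partners differ in fertility class, with fewer residual degrees of freedom. The YTHDC1 interaction turned with TMM factors (0.000467), log2 total counts (0.0140) or the first principal component (0.00502) as a covariate, and without heifer 3 (0.00893) or 22 (0.0282). Leaving out each heifer gave fertility values from -0.151 to -0.0874 for YTHDC1 and from -0.121 to -0.0664 for YTHDC2. Breed gave 0.0421 to 0.0967 and 0.0356 to 0.0821, and the interaction -0.0983 to 0.0282 and 0.0442 to 0.152. The lowest or highest of each came without heifer 21 or 22. No setting brought a reader past an adjusted p of 0.05 for breed (smallest 0.494) or the interaction (smallest 0.513). The correlation of the readers ranged from 0.374 without heifer 21 to 0.685 without heifer 20, and without both 21 and 22, an alternative added after seeing the data, it was 0.207 with group means taken out anew.

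Genes at an unadjusted p under 0.05 for breed numbered 1440, against 233 with close pairs as blocks, 488 with the first principal component, 661 in Sub-Fertile heifers alone and 1019 to 2188 with each heifer left out. For the interaction they numbered 1408, against 936 with blocks, 2334 without heifers 10 and 18 and 959 to 2010 with each heifer left out. The counts with blocks come from fits with fewer residual degrees of freedom and are not a like comparison. At an adjusted p, DESeq2 called 10 genes for breed and the blocks 1 for the interaction. Single correlations that turned, in fits added after seeing the data, were those without heifer 21 of DDX46 (-0.0466) and SNRPF (-0.230) with YTHDC2 and of SNRNP25 (-0.0959) and THOC6 (-0.228) with YTHDC1, and with TMM factors those of DDX5 (0.0268), SNRNP25 (-0.0375) and THOC3 (0.0389) with YTHDC1. The groups share no replicate numbers, so the labels give no pairing, and the blocks come from the libraries' own likeness.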
